A study of Mus musculus with 14 samples.

Results

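The genes described here are 32 mouse genes of glycolysis and the pentose phosphate pathway, together with the glucose and lactate carriers and the enzymes that decide the fate of pyruvate. They were taken as the rows of the deposited count table whose Ensembl identifier maps to the listed symbols, 32 of 46078 genes in the table, and the rule itself uses no measured value. All 32 passed the filter on low counts and were among the 26990 genes tested. The libraries were bulk RNA-seq of immature natural killer cells (iNK) and immature type 1 innate lymphoid cells (iILC1), sorted at 2000 cells per sample from marrow of C57BL/6 mice aged 8 weeks. Every mouse carried a knockout allele of Il15 and a floxed one. Controls are labelled Il-15-flox/KO. The other mice, labelled Vav-Cre;Il-15-flox/KO (cKO), also carried Cre under the Vav promoter, which is active in blood-forming cells. The state of the floxed allele in other cells of the marrow was not measured here. Each cell type had 3 control and 4 cKO libraries, and the study asked what blood-cell-derived interleukin 15 (IL-15) does for these lymphocytes. The iNK gate took NK1.1+ DX5+ CD27+ cells without CD3, IL-7Ra or CD11b, and the iILC1 gate NK1.1+ IL-7Ra+ CD49a+ cells without CD3.

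Glycolysis breaks glucose down to pyruvate in the cytosol and yields ATP and building blocks. Lactate dehydrogenase can turn the pyruvate into lactate, which leaves the cell through monocarboxylate carriers, or pyruvate dehydrogenase can pass it to the mitochondrion. The pentose phosphate pathway branches off at glucose 6-phosphate and supplies NADPH and the ribose of nucleotides. In NK cells, IL-15 is known to raise glucose uptake and glycolysis while it drives growth and division, and transcription factors such as MYC and HIF1A can activate many of these genes.

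Libraries held 3512796 to 12572326 counts, and the shallowest were the control iILC1 libraries (3512796 to 4933284). The identity of the sorted cells was read from the sort markers and lineage factors. Il7r averaged 8.37 and 22.4 CPM (counts scaled by library size and TMM factor) in control and cKO iNK and 408 and 646 CPM in control and cKO iILC1, and Eomes, the transcription factor of NK cells, averaged 731.5 and 804 CPM against 132 and 94.3 CPM. Itga1 (CD49a) was higher and Itga2 (DX5) lower in iILC1 in both genotypes, and Ncr1 and Klrb1c (NK1.1) averaged 856 to 2108 CPM and 1297 to 1836 CPM, so the sorted types carried these markers. Itgam (CD11b), absent from the iNK gate as protein, averaged 119 and 60 CPM in control and cKO iNK. In control and cKO iILC1 it averaged 94.3 and 35.3 CPM. It was called lower in cKO than in control iILC1 (log2 fold change −1.41, edgeR adjusted p = 0.00898), and in iNK it had −0.99 (adjusted p = 0.0646). Cd27 averaged 115 to 189 CPM and Tbx21 435.5 to 655 CPM over the 4 groups. Il15 itself was at 8.16 to 12.3 CPM in the iNK libraries and 11.2 to 24.95 CPM in the iILC1 libraries, with no call for genotype in either cell type (adjusted p of 0.955 and 0.982). Its count covers all exons and both genotypes hold a knockout allele, so it checks neither the deletion nor the labels.

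Background differed between libraries, and the summed CPM of the 32 genes was higher where it was low. Eno1, Ldha and Pkm weigh most in that sum, with averages of 936, 781 and 505 CPM over all libraries. Background was measured as the summed CPM of 1669 olfactory and vomeronasal receptor genes, whose known place is the sensory tissue of the nose. It was 1621, 1857 and 2912 CPM in control iNK replicates 1 to 3, and the 32 genes summed there to 6860, 7160 and 6249 CPM. In cKO iNK replicates 1 to 4 it was 2004, 3051, 2812 and 2067 CPM, with sums of 5194, 3641, 4481 and 5088 CPM. Control iNK therefore held the higher sums in all 3 libraries, and within each group the 2 libraries with the least background had the highest sums. For control iILC1 the background was 2518, 3539 and 3388 CPM and the sums were 5057, 3609 and 4431 CPM. In cKO iILC1 the values were 1881, 2890, 3437 and 3052 CPM of background and 6195, 4605, 3983 and 3792 CPM for the 32 genes. The iILC1 sums of the 2 genotypes overlapped. The pattern was not particular to the 32 genes, as sums of the NK and ILC1 markers named above were also highest in the 2 libraries with the least background of each group. In control iNK replicates 1 to 3 these marker sums were 6079, 5649 and 3595 CPM. Control iNK replicate 1 and cKO iILC1 replicate 1, the lowest libraries on the first principal component (28.6% of the variance), had the least background in their groups, and results that rest on them are given with and without them. As these are bulk samples, fewer cells of a type and less RNA per cell cannot be told apart.

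**Figure D1:**
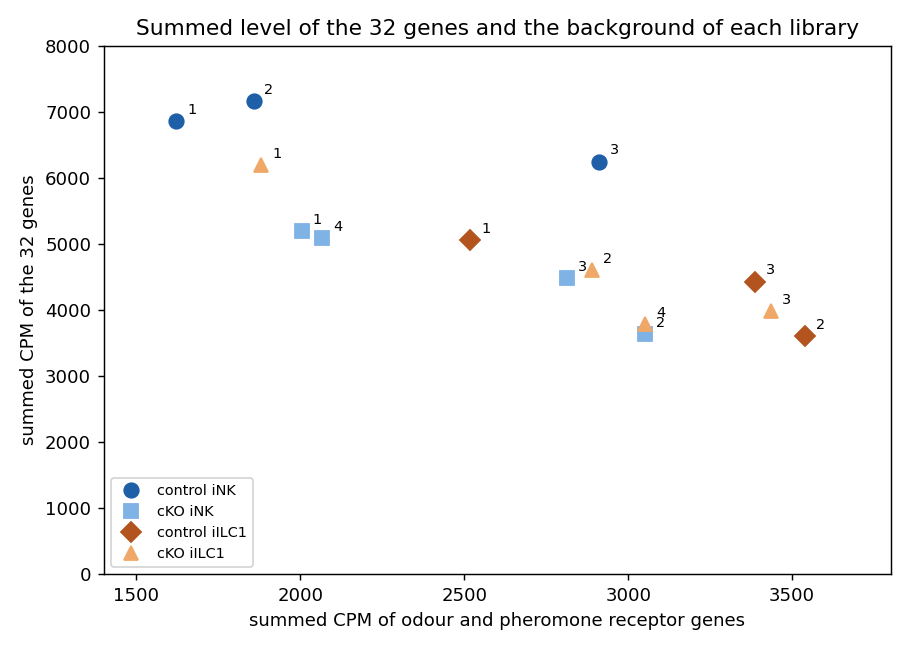
Each point is 1 library, numbered by replicate: the x axis gives the summed CPM of odour and pheromone receptor genes and the y axis the summed CPM of the 32 genes. The 3 control iNK libraries (6249 to 7160 CPM) lie above the 4 cKO iNK libraries (3641 to 5194 CPM), and in every group the 2 libraries with the least background hold the highest sums.

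The steps that end in lactate held the highest levels. Per kilobase of exon, averaged over the 14 libraries, Ldha led with a level of 262 CPM per kb, followed by Pkm at 194.5, Eno1 at 174, Aldoa at 98.2 and Tpi1 at 83.6 CPM per kb. Among the pentose phosphate genes Taldo1 was highest at 68.6 CPM per kb, among the early glycolytic genes Gpi1 at 46.7 CPM per kb, and among the carriers Slc2a1 at 19.4 CPM per kb. Both glucose carriers were present, GLUT1 (Slc2a1) at 19.4 and GLUT3 (Slc2a3) at 13.4 CPM per kb, and Hk1 (19.4 CPM per kb) was the more abundant hexokinase transcript, with Hk2 at 1.86 CPM per kb. Of the phosphofructokinase genes, Pfkp had 37.4, Pfkl 21.4 and Pfkm 8.34 CPM per kb. The exon length used here can exceed that of a gene's longest coding transcript. It was 5379 against 2027 bases for Eno1, 7245 against 3959 for Slc2a3 and 9395 against 4145 for Pfkp. The order of genes therefore depends on the length used, and before division by length Slc2a3 (97.4 CPM) was above Slc2a1 (67.95 CPM). The receptor genes give a scale for low values, with 95th percentiles of 3.65 CPM per kb in control and 4.58 in cKO iNK, and of 4.87 in control and 4.92 in cKO iILC1. Slc16a3, Hk2, Pfkfb4 and Aldoc did not exceed that level in any group, Ldhb did not in either iNK group, and Slc16a1 did not in cKO iILC1. Slc16a1 in the other 3 groups and Ldhb in both iILC1 groups were above it.

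**Figure D2:**
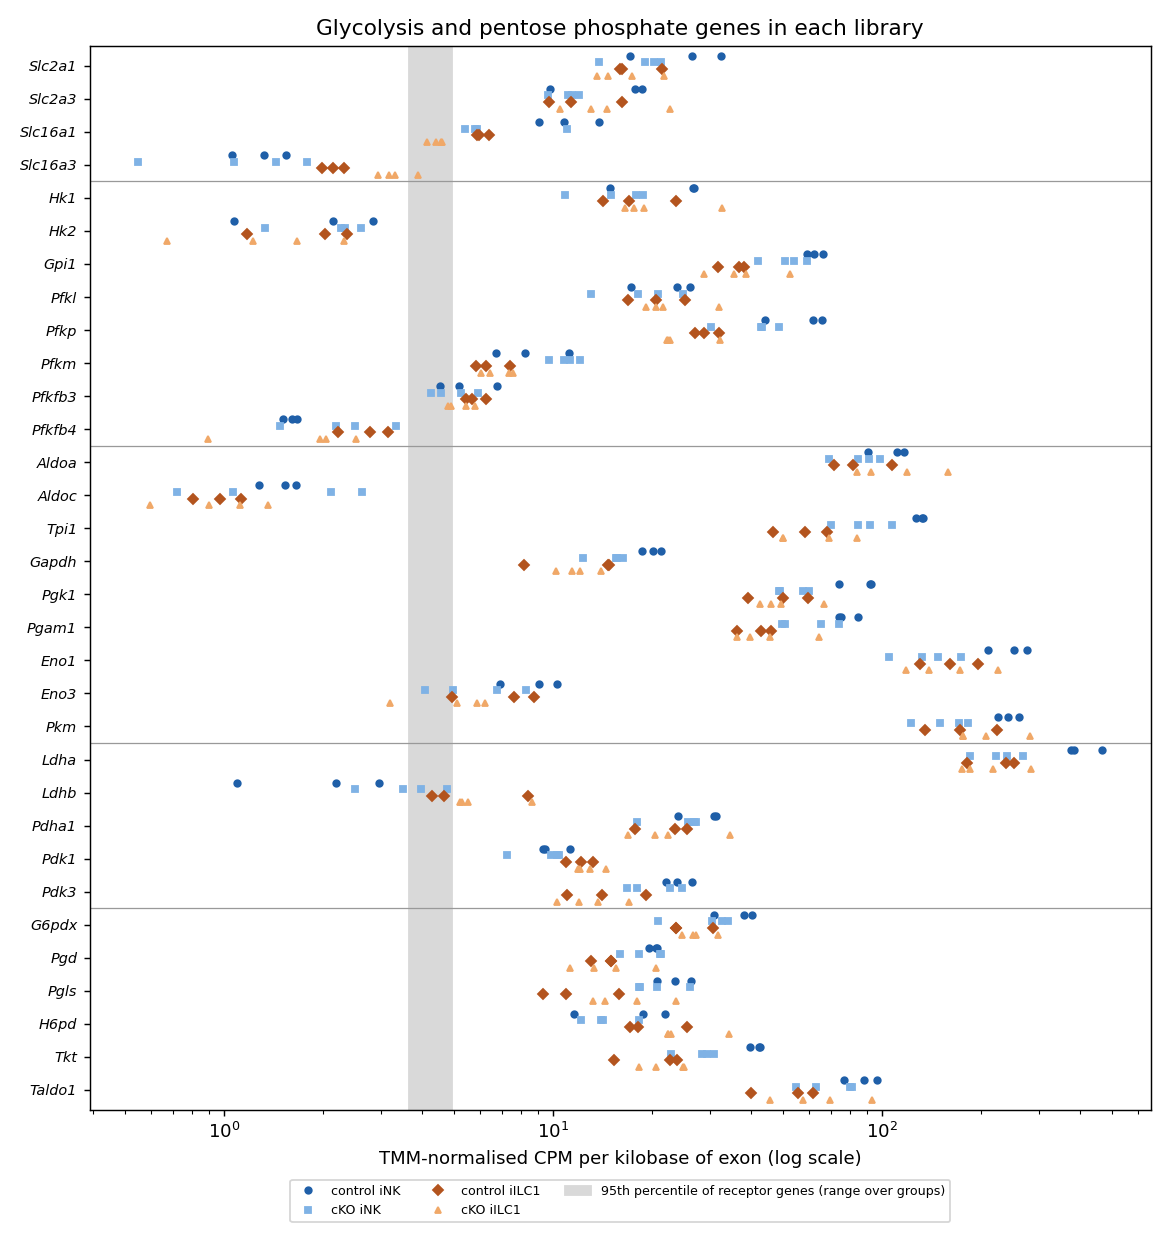
Every point is the level of 1 gene in 1 library, in TMM-normalised CPM per kilobase of exon on a log axis, with genes grouped by step of the pathway and colours and shapes for the 4 groups. The grey band spans the 95th percentiles of the receptor genes (3.65 to 4.92 CPM per kb), and Ldha, Pkm and Eno1 lie farthest to the right.

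Gapdh, the glyceraldehyde phosphate dehydrogenase often used as a reference gene, was listed at only 14.6 CPM per kb. Its transcript matched 45 pseudogenes at 97% identity or more over at least 100 bases, 88.0% of its length was covered, and 43 of these pseudogenes in the table together held 17563 counts against 5826 for Gapdh. The values of Gapdh are therefore uncertain, since the handling of reads with several matches is not given in the sources used here. Ldhb is the other gene whose pseudogene has a separate count equal to more than 10% of its own (277 against 673 counts). Eno1, Pgk1, Pkm, Gpi1, Pgam1 and Tpi1 also have matching pseudogenes, whose counts equalled 0.26% to 3.00% of the gene's own, and 19 of the 32 genes matched no other gene.

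Promoter sequences are shown for Ldha, Eno1 and Pgk1, which had the lowest p-values for genotype in iNK, and for Ldhb, which lay on the other side of 0 there. Each is the 250 bases before a RefSeq transcription start (build GRCm38.p6, 5′ to 3′ on the gene's strand). Capitals mark ACGTG or GCGTG on either strand, the core letters bound by HIF1A, of which ACGTG is also part of the MYC motif CACGTG. The windows are chr7:46845554-46845803 (plus strand) for Ldha, chr4:150236458-150236707 (plus strand) for Eno1, chrX:106186850-106187099 (plus strand) for Pgk1 and chr6:142507958-142508207 (minus strand) for Ldhb. The Ldha window lies inside the annotated gene, before a later start, and the others lie just before theirs.
Ldha: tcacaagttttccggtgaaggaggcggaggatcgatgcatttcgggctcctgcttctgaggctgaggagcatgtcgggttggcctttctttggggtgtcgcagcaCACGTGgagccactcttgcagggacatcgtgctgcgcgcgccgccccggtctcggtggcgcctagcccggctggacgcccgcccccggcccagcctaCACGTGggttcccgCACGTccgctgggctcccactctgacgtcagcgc
Eno1: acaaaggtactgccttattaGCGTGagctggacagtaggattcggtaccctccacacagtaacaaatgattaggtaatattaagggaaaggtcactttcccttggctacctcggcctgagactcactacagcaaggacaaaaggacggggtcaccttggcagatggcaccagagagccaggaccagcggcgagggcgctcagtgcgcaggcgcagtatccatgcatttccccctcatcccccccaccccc
Pgk1: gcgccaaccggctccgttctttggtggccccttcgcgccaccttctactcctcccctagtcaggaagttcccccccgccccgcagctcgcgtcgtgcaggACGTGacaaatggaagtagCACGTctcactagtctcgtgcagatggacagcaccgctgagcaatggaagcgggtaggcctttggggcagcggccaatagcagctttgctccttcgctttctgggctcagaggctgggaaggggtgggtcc
Ldhb: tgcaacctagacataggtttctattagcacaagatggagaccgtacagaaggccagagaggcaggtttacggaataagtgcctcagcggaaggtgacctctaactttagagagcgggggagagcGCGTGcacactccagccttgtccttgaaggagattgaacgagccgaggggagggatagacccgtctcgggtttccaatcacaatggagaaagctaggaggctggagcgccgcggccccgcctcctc
Over windows from 250 bases before to 50 bases after a start, 28 of the 31 genes with an entry (90.3%) held ACGTG or GCGTG in at least 1 window, against 46.7% of the 27025 genes in the RefSeq table. The 31 genes had 45 windows and the 27025 genes 32851, so the 31 had more windows per gene. The 27025 genes were not limited to genes expressed here. For 41 of the 45 windows the last 15 bases were found in a transcript of the gene. CACGTG was in 4 of 31 (Ldha, Pfkfb3, Pfkm and Slc16a1; 12.9%) against 8.09%. Gpi1, H6pd and Tpi1 held neither ACGTG nor GCGTG, and Slc2a3 had no entry. These are matches of letters and not binding sites, and their part in any difference between the groups was not tested.

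None of the 32 genes passed the test between cKO and control iNK, and the largest differences below 0 were in Ldha, Eno1 and Pgk1, abundant transcripts of lower glycolysis. The comparison asked how iNK cells differ when blood cells lack IL-15. Of all genes tested, 0.408% were called (110 of 26990), and of genes of at least 50 CPM 0.718%. Here 0 of 32 were called by edgeR's quasi-likelihood test with Benjamini-Hochberg adjustment, 10 had an unadjusted p under 0.05 (9 lower and Ldhb higher) where 7.93% of all genes and 10.4% of genes of at least 50 CPM did, and DESeq2 called 3. The estimate was below 0 for 27 of 32 (84.4%), where it was for 44.9% of all genes and 78.7% of genes of at least 50 CPM, with a median log2 fold change of −0.31, beside 0.06 over all genes tested and −0.16 over the 4875 genes of at least 50 CPM. Slc16a1, Slc16a3, Hk2, Pfkm, Pfkfb3, Pfkfb4, Aldoc, Eno3, Ldhb and Pdk3 averaged under 50 CPM over all libraries. Every estimate above 0 here came from these genes. The shares of genes of at least 50 CPM, here and below, are therefore not matched by level to the 32. In 9 genes the 4 cKO libraries all lay under the 3 control libraries (Gpi1, Tpi1, Gapdh, Pgk1, Pgam1, Eno1, Pkm, Ldha and Tkt), which 4.75% of all genes and 11.6% of genes of at least 50 CPM did, and in none did they all lie above (4.09% and 0.964%).

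Ldha (ENSMUSG00000063229, chromosome 7, 46841475 to 46855627, plus strand) encodes the subunit of lactate dehydrogenase that favours lactate. It was at 1145, 1121 and 1390 CPM in control iNK and at 712, 549.9, 659.9 and 799 CPM in cKO iNK. The lowest control library was well above the highest cKO library, and the log2 fold change was −0.84 (adjusted p = 0.146, SE 0.235). DESeq2 gave an adjusted p of 0.00275. Eno1 (ENSMUSG00000063524, chromosome 4, 150236721 to 150248879, plus strand), the main enolase, was at 1354, 1482 and 1127 CPM in control and 935, 565, 710.2 and 792 CPM in cKO. The groups did not overlap, and the log2 fold change was −0.82 (adjusted p = 0.232, SE 0.252), with an adjusted p of 0.0235 in DESeq2. Pgk1 (ENSMUSG00000062070, chromosome X, 106187100 to 106203699, plus strand), the kinase of the first ATP-yielding step, was at 166, 206 and 208 CPM in control and 134, 109, 110 and 129 CPM in cKO. Here too every cKO library lay lower, with a log2 fold change of −0.68 (adjusted p = 0.243, SE 0.212) and an adjusted p of 0.0305 in DESeq2.

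Pkm (ENSMUSG00000032294, chromosome 9, 59656368 to 59679375, plus strand), the pyruvate kinase that ends glycolysis, was at 628, 674 and 583 CPM in control and 474, 318, 389 and 445 CPM in cKO. The 2 groups were apart, although the log2 fold change of −0.63 (adjusted p = 0.439, SE 0.236) did not pass. Tkt (ENSMUSG00000021957, chromosome 14, 30548359 to 30574722, plus strand) encodes transketolase, which links the pentose phosphates back to glycolysis. It was at 275, 277 and 259 CPM in control and 201, 149, 192 and 184 CPM in cKO, again without overlap, and its log2 fold change was −0.57 (adjusted p = 0.423, SE 0.211). Slc16a1 (ENSMUSG00000032902, chromosome 3, 104638668 to 104658462, plus strand), the lactate and pyruvate carrier MCT1, was at 40.1, 47.6 and 61.1 CPM in control and 26, 23.9, 25.6 and 48.8 CPM in cKO. Its groups overlapped through cKO replicate 4, the log2 fold change was −0.67 (adjusted p = 0.37, SE 0.234), and without that library it was −0.94 (adjusted p = 0.0569).

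By role, the 9 genes from aldolase to pyruvate had a median log2 fold change of −0.55, the 4 carriers −0.46, the 6 pentose phosphate genes −0.28, the 5 genes of pyruvate fate −0.23 and the 8 genes from hexokinase to phosphofructokinase −0.17. Slc2a1 (ENSMUSG00000028645, chromosome 4, 119108711 to 119137983, plus strand), the glucose carrier GLUT1, was at 113, 92.8 and 60.1 CPM in control and 66.5, 48.2, 71.2 and 74.7 CPM in cKO, overlapping, and differed by −0.44 (adjusted p = 0.659, SE 0.228) on the log2 scale. Tpi1, the triose phosphate isomerase, had a log2 fold change of −0.57, Hk1 −0.54 and Pfkp −0.47. Estimates above 0 were found for Ldhb (0.82), Pfkfb4 (0.57), Pfkm (0.34), Aldoc (0.13) and Hk2 (0.08), none of which averaged above 24.7 CPM over all libraries. Ldhb, the lactate dehydrogenase subunit that favours pyruvate, was at 1.72, 3.44 and 4.64 CPM in control and 5.51, 7.49, 6.24 and 3.92 CPM in cKO. Its libraries overlapped, and its log2 fold change was 0.82 (adjusted p = 0.621, SE 0.39).

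Other measures moved with genotype in the same libraries. Il7r, absent from the iNK gate as protein, rose (log2 fold change 1.42, edgeR adjusted p = 0.00565). Mki67, a gene of dividing cells, had a mean of 323 ± 30.7 CPM (SD) in the 3 control iNK libraries and 139 ± 30.7 CPM (SD) in the 4 cKO iNK libraries, and it fell by 1.21 on the log2 scale (adjusted p = 0.0292 in edgeR). Of 8 B-lineage markers 5 rose, none was at 0 in a whole group, and their sum was 395 to 616 CPM in control and 756 to 1203 CPM in cKO. Of 8 erythroid markers none passed, with sums of 7.4 to 46.1 CPM and 77.1 to 591 CPM. The part of dividing, B-lineage or erythroid cells in the differences was not tested. With the receptor background as a covariate, the median of the 32 genes was −0.17 beside 0.00 for genes of at least 50 CPM, and Ldha, Eno1, Pgk1 and Pkm were called (adjusted p of 0.00383 to 0.0482). Without control iNK replicate 1 and cKO iILC1 replicate 1 together none was called, and Ldha had −0.88 (adjusted p = 0.0646).

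**Figure D3:**
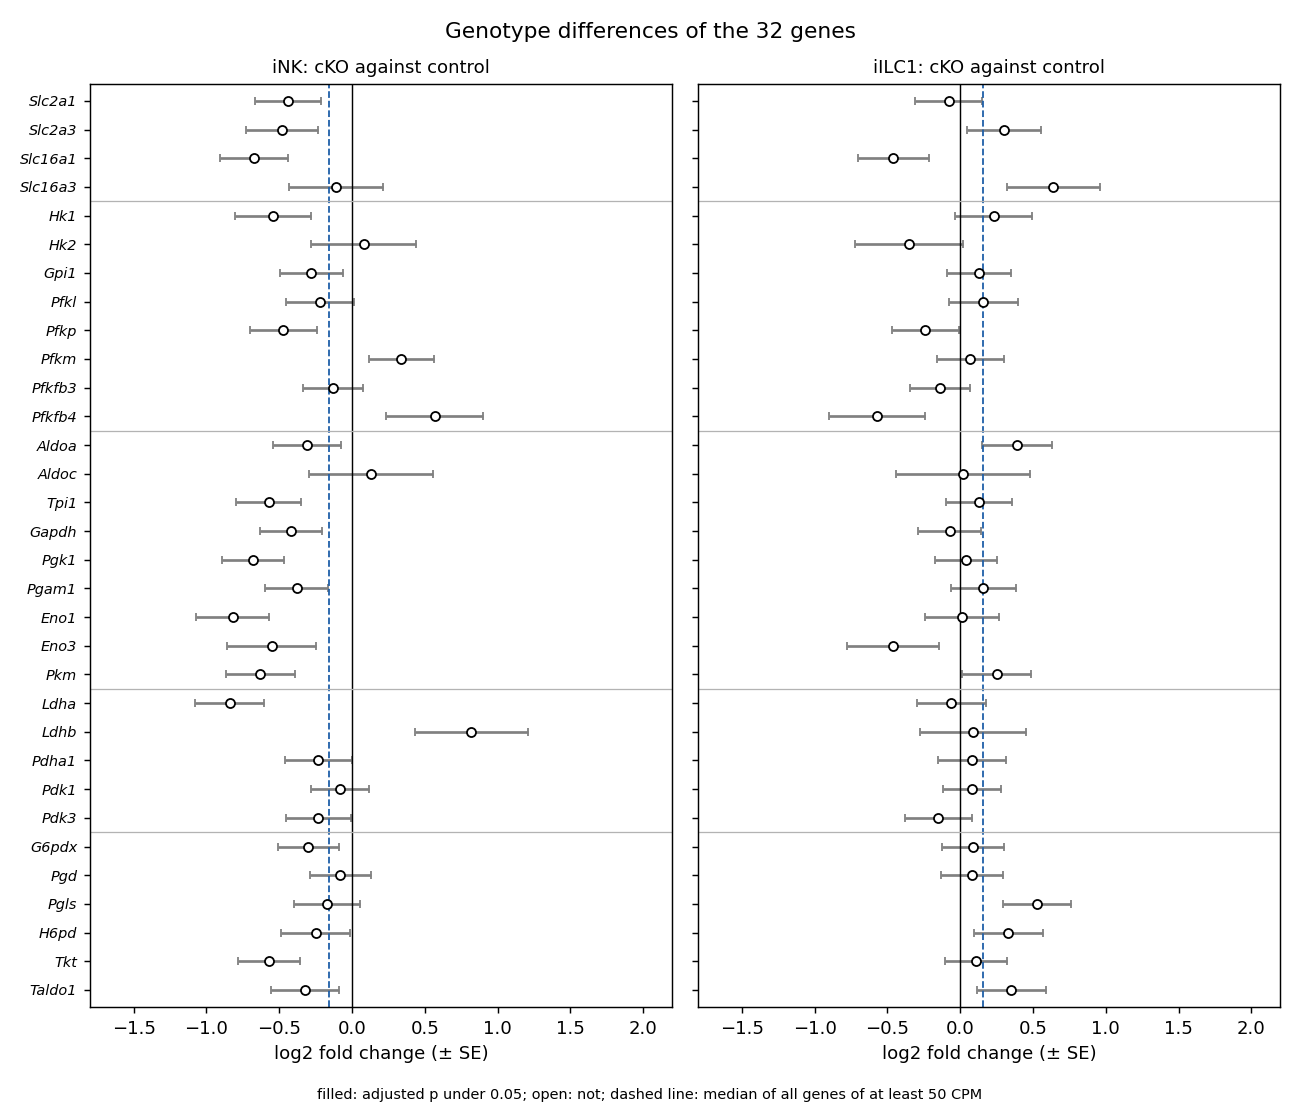
Points are log2 fold changes of cKO against control in iNK (left) and iILC1 (right), bars are ± 1 SE, open points have an adjusted p of 0.05 or more, and the dashed line is the median of all genes of at least 50 CPM (−0.16 and 0.16). No gene is filled in either panel: 27 of 32 estimates lie below 0 in iNK and 10 of 32 in iILC1.

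In iILC1 no difference between cKO and control passed the test for any of the 32 genes. Of all genes tested 0.0482% were called (13 of 26990), and of genes of at least 50 CPM 0.123%. edgeR called 0 of the 32, 1 had an unadjusted p under 0.05 (Pgls) where 4.46% of all genes and 4.74% of genes of at least 50 CPM did, and DESeq2 called 0. The estimate was below 0 for 10 of 32 (31.2%), where it was for 48.4% of all genes and 17.7% of genes of at least 50 CPM, and the median log2 fold change was 0.08, beside 0.01 over all genes and 0.16 over genes of at least 50 CPM. Of these 10, only Slc2a1, Pfkp, Gapdh and Ldha averaged at least 50 CPM over all libraries. The sign of that median was not stable, as it was −0.05 without cKO iILC1 replicate 1 and −0.01 with the background covariate.

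Slc16a3 (ENSMUSG00000025161, chromosome 11, 120948480 to 120960868, plus strand), the lactate exporter MCT4, was at 12.3, 10.5 and 11.4 CPM in control and 20.6, 17.6, 15.6 and 16.9 CPM in cKO iILC1. Slc16a1, the carrier MCT1, was at 26.3, 26 and 28.2 CPM in control and 20.2, 20.3, 18.3 and 19.4 CPM in cKO. The cKO libraries were all higher for Slc16a3 and all lower for Slc16a1, with log2 fold changes of 0.64 (adjusted p = 0.982, SE 0.318) and −0.46 (adjusted p = 0.982, SE 0.243). These were the only 2 of the 32 without overlap, 1 on each side, a share near that of all genes (2.66% higher and 2.82% lower; 3.16% and 0.677% of genes of at least 50 CPM).

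Pgls (ENSMUSG00000031807, chromosome 8, 71592176 to 71601092, plus strand), the lactonase of the oxidative pentose phosphate branch, was at 59.7, 35 and 41.2 CPM in control and 89.3, 67.6, 54.1 and 49.7 CPM in cKO, overlapping, with a log2 fold change of 0.53 (adjusted p = 0.982, SE 0.234). Taldo1 (ENSMUSG00000025503, chromosome 7, 141392199 to 141402968, plus strand) encodes transaldolase, an enzyme of the non-oxidative branch. It was at 123, 79.7 and 111 CPM in control and 186, 139, 115 and 90.9 CPM in cKO, and its log2 fold change was 0.35 (adjusted p = 0.982, SE 0.237). The library that reached highest for both genes was cKO replicate 1, without which the log2 fold changes were 0.34 and 0.14. B-lineage sums were 405 to 614 CPM in control and 635 to 1033 CPM in cKO iILC1 (1 of 8 markers rose), T-cell sums 160 to 297 CPM and 87.7 to 139.5 CPM (1 of 6 fell), and their part in these values was not tested.

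Aldoa (ENSMUSG00000030695, chromosome 7, 126795234 to 126800751, minus strand), the main aldolase, was at 294, 197 and 225 CPM in control and 437, 327, 254 and 231 CPM in cKO. Its groups overlapped, the log2 fold change was 0.39 (adjusted p = 0.982, SE 0.238), and without cKO replicate 1 it was 0.18. Pfkfb4 (ENSMUSG00000025648, chromosome 9, 108991778 to 109032228, plus strand) sets the level of the sugar phosphate that activates phosphofructokinase. It was at 10.8, 13.5 and 15.4 CPM in control and 4.36, 9.55, 12.2 and 9.91 CPM in cKO, a log2 fold change of −0.57 (adjusted p = 0.982, SE 0.328) between overlapping low values. For the 6 genes with the smallest p in iNK, the iILC1 estimates were −0.06 for Ldha, 0.01 for Eno1, 0.04 for Pgk1, −0.46 for Slc16a1, 0.11 for Tkt and 0.25 for Pkm.

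Whether the genotype effect differed between the cell types was tested as an interaction, with the iNK effect subtracted from that in iILC1. It passed for none of the 32 genes in edgeR, where 0.0778% of all genes (21 of 26990) and 0.144% of genes of at least 50 CPM were called, and DESeq2 called 0 too. With an unadjusted p under 0.05 there were 11 genes, where 6.9% of all genes and 8.25% of genes of at least 50 CPM had one: 10 with a higher value in iILC1 (Slc2a3, Hk1, Aldoa, Tpi1, Pgk1, Eno1, Pkm, Ldha, Pgls and Tkt) and Pfkfb4 with a lower one. Pkm had 0.87, Eno1 0.83, Ldha 0.78 and Pfkfb4 −1.14 on the log2 scale, all with an adjusted p of 0.709 to 0.711. The median of the 32 interaction terms was 0.38, beside 0.34 for genes of at least 50 CPM. Without control iNK replicate 1 and cKO iILC1 replicate 1 together it was 0.27 beside 0.08. With the background covariate it was 0.19 beside 0.03. As no interaction passed, a genotype difference restricted to iNK was not shown for any of the 32 genes.

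Between the cell types in control mice, 9 of the 32 genes were lower and 1 was higher in iILC1, and the lower ones reached from the carrier MCT1 through the middle of glycolysis to lactate and the pentose phosphate branch. The comparison asked how the populations differ where blood cells make IL-15. It shares its control iNK libraries with the genotype comparison in iNK, and the comparison in cKO mice shares its cKO iNK libraries, so the results are not independent. In all, 10 of 32 were called by edgeR, where 4.11% of all genes (0.945% higher and 3.16% lower) and 9.87% of genes of at least 50 CPM were. The estimate was below 0 for 26 of 32 (81.2%), where it was for 42.6% of all genes and 89.7% of genes of at least 50 CPM, with a median log2 fold change of −0.49, beside 0.16 over all genes and −0.40 over genes of at least 50 CPM. In 17 genes all iILC1 libraries lay under all iNK libraries, which 13% of all genes and 34.4% of genes of at least 50 CPM did, and in 3 (Ldhb, Slc16a3 and Pfkfb4) they lay above, which 12% and 2.13% did.

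Tpi1 (ENSMUSG00000023456, chromosome 6, 124810586 to 124814296, minus strand), which interconverts the triose phosphates, was at 295, 280.5 and 291 CPM in control iNK and 150, 103 and 129 CPM in control iILC1. The groups were far apart relative to their spread, and the log2 fold change was −1.18 (adjusted p = 0.00327, SE 0.244). Tkt was at 275, 277 and 259 CPM in iNK and 148, 99.97 and 156 CPM in iILC1, a log2 fold change of −1.01 (adjusted p = 0.00868, SE 0.231). Pgls was at 98.9, 88.2 and 77.9 CPM in iNK and 59.7, 35 and 41.2 CPM in iILC1, a log2 fold change of −0.97 (adjusted p = 0.0209, SE 0.249). In both pentose phosphate genes the highest iILC1 library was below the lowest iNK library.

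Pfkp (ENSMUSG00000021196, chromosome 13, 6579768 to 6648777, minus strand), the phosphofructokinase form first named for platelets, was at 579, 618 and 415 CPM in iNK and 301, 253 and 271 CPM in iILC1. The 2 groups did not overlap, and the log2 fold change was −0.97 (adjusted p = 0.0206, SE 0.247). Gpi1 (ENSMUSG00000036427, chromosome 7, 34202122 to 34230289, minus strand), the isomerase that prepares the substrate of phosphofructokinase, was at 278, 297 and 266 CPM in iNK and 165, 143 and 171 CPM in iILC1. The iNK values lay close together and above all iILC1 values, with a log2 fold change of −0.81 (adjusted p = 0.0447, SE 0.235).

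Pgam1 (ENSMUSG00000011752, chromosome 19, 41911871 to 41918664, plus strand), the phosphoglycerate mutase, was at 155, 135 and 138 CPM in iNK and 84.2, 66.2 and 78.4 CPM in iILC1, a log2 fold change of −0.90 (adjusted p = 0.0242, SE 0.237). Pgk1 was at 112, 87.5 and 134 CPM in control iILC1, lower than each control iNK library given above, with a log2 fold change of −0.79 (adjusted p = 0.0447, SE 0.231). Ldha was at 709, 541 and 749 CPM in control iILC1, a log2 fold change of −0.87 (adjusted p = 0.0467, SE 0.255). These enzymes of the later steps all had iILC1 libraries under the iNK range. Slc16a1 in control iILC1 spanned 26.04 to 28.2 CPM, also below the iNK range, with a log2 fold change of −0.88 (adjusted p = 0.0464, SE 0.259).

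Ldhb (ENSMUSG00000030246, chromosome 6, 142490249 to 142507957, minus strand) was the called gene on the higher side. It was at 6.73, 13.1 and 7.33 CPM in control iILC1, above the control iNK values given earlier, with a log2 fold change of 1.48 (adjusted p = 0.0369, SE 0.415). The iNK values are low, and its pseudogene has a separate count equal to 41.2% of that of Ldhb. Eno1 and Pkm, among the largest differences for genotype in iNK, did not pass here, with −0.60 (adjusted p = 0.207, SE 0.273) and −0.45 (adjusted p = 0.308, SE 0.255). Among the other genes, Gapdh (−0.67), Taldo1 (−0.74) and Pdk3 (−0.71) did not pass either (adjusted p of 0.0912 to 0.0934). The labels do not state what a replicate number shares. With the number as a block all 3 were called lower (adjusted p of 0.0251 to 0.0269), 13 of 32 genes in all. DESeq2 without the block called the same 13. Glucose carriers and hexokinases did not pass, with −0.51 for Slc2a1, −0.31 for Slc2a3, −0.31 for Hk1 and −0.11 for Hk2. Of the remaining genes, G6pdx (−0.49), the dehydrogenase that opens the oxidative pentose phosphate branch, Pgd (−0.50), its second dehydrogenase, Pdha1 (−0.37), a subunit of pyruvate dehydrogenase, Eno3 (−0.31), the muscle enolase, and Pfkfb3 (0.07), a relative of Pfkfb4, did not pass in any of the 5 tests.

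Leaving out single libraries removed many of these calls. Without control iNK replicate 1 and cKO iILC1 replicate 1 together, 9 were called, and Ldhb was lost (adjusted p = 0.131). Without control iILC1 replicate 2, none of the 32 was called, with Tpi1 at an adjusted p of 0.0507 and Tkt at 0.123. Tpi1 and Tkt alone were called without control iNK replicate 1 and also without control iILC1 replicate 3, and these with Pgam1 without control iNK replicate 2. Without control iNK replicate 3, Slc16a1, Pgk1 and Ldha were lost and 7 remained. Without control iILC1 replicate 1, Slc16a1, Gpi1, Pgk1 and Ldha were lost, Pdk3 was gained and 7 were called. With the background covariate 5 were called: Pfkp, Tpi1, Ldha and Tkt lower and H6pd higher, and the median became −0.19 beside −0.01 for genes of at least 50 CPM. Mki67 averaged 74.9 ± 35.9 CPM (SD, n = 3) in control iILC1, a log2 difference of −2.10 (adjusted p = 3.4e-05) from control iNK. Of 6 T-cell markers tested 3 rose, from sums of 76.3 to 100.4 CPM in iNK to 160 to 297 CPM in iILC1. Cd74 (3.02) of the 8 B-lineage markers, Csf1r (1.10) of the 8 neutrophil and monocyte markers and Cxcl12 (1.22) of the 4 stromal and endothelial markers were also called higher. The neutrophil and monocyte sum was 111 to 279.6 CPM in control iNK and 58.6 to 74.0 CPM in control iILC1, without overlap. The part of any of these in the 10 calls was not tested.

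**Figure D4:**
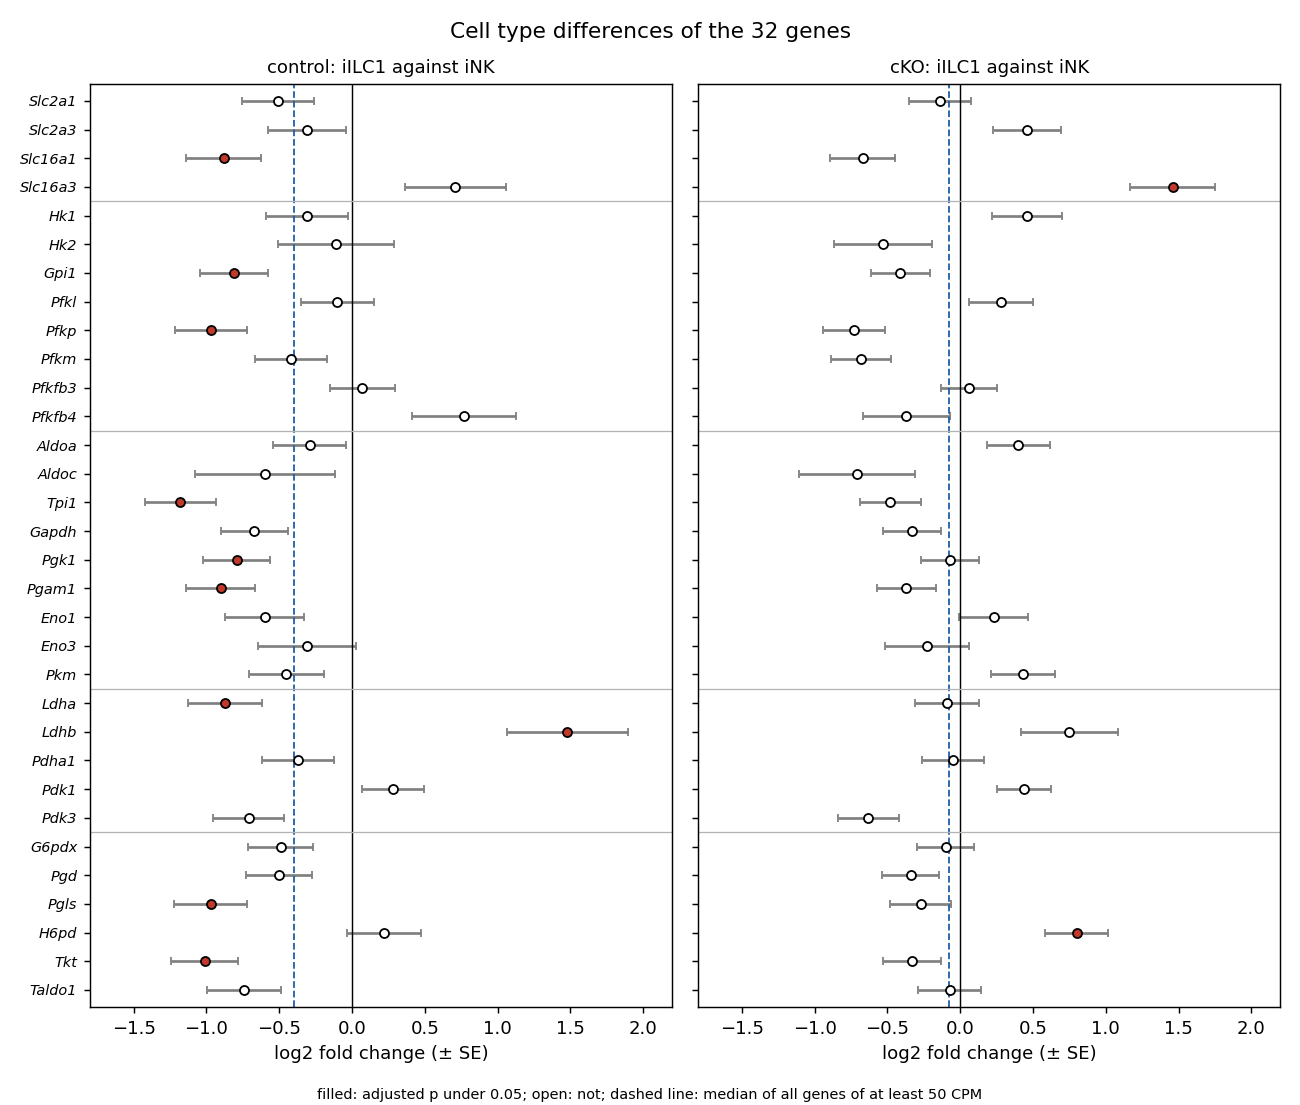
Points are log2 fold changes of iILC1 against iNK in control (left) and cKO mice (right), bars are ± 1 SE, filled points have an adjusted p under 0.05, and the dashed line is the median of all genes of at least 50 CPM (−0.40 and −0.08). Filled points are 9 lower genes and Ldhb in controls, and Slc16a3 and H6pd, both higher, in cKO mice.

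In cKO mice the set of called genes was another one: Slc16a3 and H6pd rose in iILC1, and none of the 32 fell. edgeR called 2 of 32, where 3.41% of all genes (1.75% higher and 1.66% lower) and 6.4% of genes of at least 50 CPM were called, and DESeq2 called 4, adding Pfkp and Pfkm, both lower. The estimate was below 0 for 21 of 32 (65.6%), where it was for 49.1% of all genes and 64.1% of genes of at least 50 CPM, with a median log2 fold change of −0.12, beside 0.01 over all genes and −0.08 over genes of at least 50 CPM. The iILC1 libraries lay above all iNK libraries in 4 genes (Slc16a3, H6pd, Ldhb and Pdk1; 3.52% of all genes) and below them in 2 (Slc16a1 and Pfkm; 3.08%). Of genes of at least 50 CPM 4.53% did so on each side. No gene was called in both cell type comparisons, but the difference between them is the interaction, which no member passed.

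Slc16a3 was at 7.65, 2.91, 9.49 and 5.71 CPM in cKO iNK, below all cKO iILC1 libraries, whose values are given above. Its log2 fold change was 1.46 (adjusted p = 0.00156, SE 0.293), and the call held under all 18 alternatives, with estimates of 1.26 to 1.71. The values are low, at 1.21 CPM per kb in cKO iNK and 3.32 in cKO iILC1. The 95th percentiles of the receptor genes there were 4.58 and 4.92 CPM per kb. In control mice the same gene was at 7.03, 8.19 and 5.598 CPM in iNK and 10.5 to 12.3 CPM in iILC1, also without overlap, with 0.71 (adjusted p = 0.24, SE 0.349). H6pd (ENSMUSG00000028980, chromosome 4, 149979475 to 150009023, minus strand) encodes the glucose 6-phosphate dehydrogenase of the endoplasmic reticulum. It was at 95.1, 63.5, 73 and 74 CPM in cKO iNK and 179.7, 119, 117 and 117 CPM in cKO iILC1. The iILC1 libraries were all higher, cKO iILC1 replicate 1 most of all, and the log2 fold change was 0.80 (adjusted p = 0.0295, SE 0.218). Without that library it was 0.66 (adjusted p = 0.0344), and the call was lost without cKO iNK replicate 2, 3 or 4 (adjusted p of 0.0511, 0.0965 and 0.0521). It was also lost without control iNK replicate 1 and cKO iILC1 replicate 1 together (0.62, adjusted p = 0.0812).

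The genes that separated the cell types in controls had smaller estimates in cKO mice, with −0.48 for Tpi1, −0.33 for Tkt, −0.27 for Pgls, −0.37 for Pgam1 and −0.09 for Ldha. They were picked because they passed in controls, which by itself favours larger estimates there. The median of genes of at least 50 CPM was also smaller, −0.08 in cKO mice beside −0.40 in controls. Pfkp had −0.73 (adjusted p = 0.0503, SE 0.213), just outside the threshold. Slc16a1 (−0.67), Pfkm (−0.68) and Pdk3 (−0.63) also had lower values, and Pdk1 (0.44) and Ldhb (0.75) higher ones, none of which passed. With cKO iILC1 replicate 1 left out, 5 were called, with Pfkp, Tpi1 and Pdk3 lower beside Slc16a3 and H6pd. Without cKO iNK replicate 3 or 4 only Slc16a3 was called of the 32. The background covariate raised the count to 11, 8 higher (Slc2a3, Slc16a3, Hk1, Pfkl, Aldoa, Pkm, Pdk1 and H6pd) and 3 lower (Pfkp, Pfkm and Pdk3). Mki67 averaged 48.6 ± 15.3 CPM (SD, n = 4) in cKO iILC1, a log2 difference of −1.52 (adjusted p = 0.000182) from cKO iNK. Of 8 B-lineage markers 4 were lower and 1 higher in iILC1, with sums of 635 to 1033 CPM there, and the erythroid sum was 11.0 to 251 CPM. Of 6 T-cell markers Cd3e (2.94) and Cd4 (1.81) were called higher, with sums of 68.8 to 87.8 CPM in cKO iNK and 87.7 to 139.5 CPM in cKO iILC1. Their part in these results was not tested.

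Genes that encode forms of the same enzyme or carrier were set against each other within each library, as the share of the first gene in the summed CPM per kb of both. Pfkl took 28.1 ± 1.63% (SD) of Pfkl plus Pfkp in the 3 control iNK libraries, 31.65 ± 3.25% in the 4 cKO iNK, 41.4 ± 2.71% in the 3 control iILC1 and 48.2 ± 1.74% in the 4 cKO iILC1 libraries. The iILC1 libraries were all above the iNK libraries of their genotype. Pdk1 and Pdk3 encode kinases that inhibit pyruvate dehydrogenase. Pdk1 took 29.3 ± 1.08%, 31.7 ± 4.22%, 45.7 ± 4.54% and 49.6 ± 3.76% of Pdk1 plus Pdk3 in the same order, again without overlap between the cell types. Slc16a1 took 89.2 ± 3.19%, 84.7 ± 7.43%, 73.9 ± 1.64% and 57.2 ± 2.05% of Slc16a1 plus Slc16a3, and the cKO iILC1 libraries all lay below the control iILC1 libraries. Both values are low in cKO iILC1, at 4.42 CPM per kb for Slc16a1 and 3.32 for Slc16a3. The 95th percentile of the receptor genes there was 4.92 CPM per kb, and Slc16a3 did not exceed that percentile in any group. Ldha made up 97.2% to 99.5% of Ldha plus Ldhb in every group on average, Aldoa 98.2% to 99.0% of Aldoa plus Aldoc, and Eno1 95.9% to 96.9% of Eno1 plus Eno3.

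Of the 36 tests of 9 gene pairs in 4 comparisons, 14 had groups that did not overlap, and the p-values were adjusted over the 36 (two-sided exact permutation test, lowest adjusted p = 0.2165). Other gene pairs were not counted, so there is no share to set beside the 14. With 3 against 3 libraries the smallest p such a test can give is 0.1, with 3 against 4 it is 0.0571 and with 4 against 4 it is 0.0286. The lowest adjusted p these 36 tests allow is 0.0762, so none could pass, and the shares are given as a description. Hk1 held 87.7% to 92.8% of Hk1 plus Hk2, and Slc2a1 53.2% to 62.5% of Slc2a1 plus Slc2a3. The size of a share depends on the exon lengths used. In CPM without division by length, Slc2a3 (97.4 CPM over all libraries) was above Slc2a1 (67.95 CPM).

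**Figure D5:**
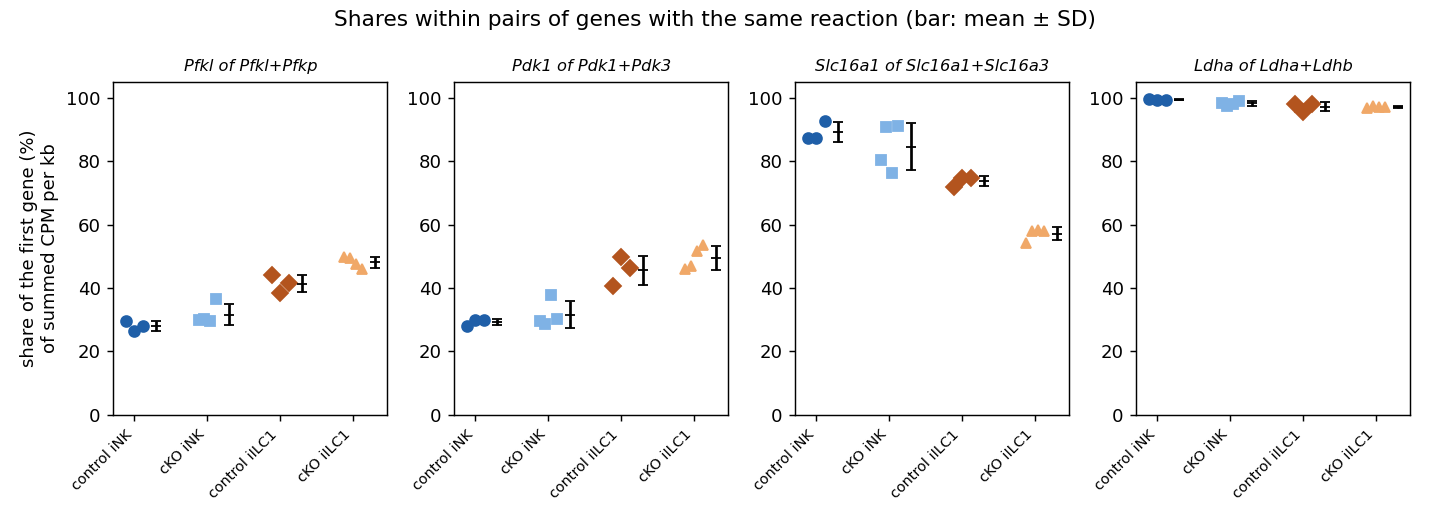
Each symbol is 1 library, and the bars give mean ± SD of the share of the first gene in the summed CPM per kb of a pair, from 0 to 100%. Pfkl and Pdk1 take larger shares in iILC1 than in iNK (41.4% and 48.2% against 28.1% and 31.65% for Pfkl), and Ldha averages 97.2% or more in every group. Slc16a1 is at 57.2% in cKO iILC1, where neither gene of its pair exceeds the 95th percentile of the receptor genes.

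Of 95 further genes of glucose metabolism and its regulation, 94 were tested, and none was called for genotype in either cell type or for the interaction. Unadjusted, 10 of the 94 had a p under 0.05 for genotype in iNK and 2 in iILC1, where 7.93% and 4.46% of all genes had. Between the cell types in controls 4 of the 94 were called, where 4.11% of all genes were, all lower in iILC1: Galk1, the galactokinase (−1.08), Me2, a mitochondrial malic enzyme (−0.97), Bsg, the partner protein that brings MCT1 and MCT4 to the membrane (−0.96), and Gpd2, of the glycerol phosphate shuttle (−0.87). In cKO mice 5 of the 94 were called, where 3.41% of all genes were. Me2 was lower (−0.76), and Tktl1, a transketolase relative (1.53), Hk3, a further hexokinase (1.15), Slc16a6, a carrier related to the MCTs (1.08), and Slc2a8, the glucose carrier GLUT8 (0.87), were higher in iILC1. None of the 29 regulators passed in any of the 5 tests. Myc averaged 173 and 152 CPM in control and cKO iNK and 97.1 and 88.0 CPM in control and cKO iILC1 (cell type differences of −0.83 and −0.78, adjusted p of 0.0725 and 0.0546), and Hif1a 98.2, 103, 72.9 and 80.3 CPM in the same order of groups.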

How the data were processed

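Bulk RNA-seq counts of 14 libraries were used as the authors deposited them, as whole numbers of reads per gene. Per the submitters' processing notes, tools included Trimmomatic 0.33, HISAT2 2.1.0 and featureCounts of Subread 1.6.5, and the build was mm10. Not given in the sources used here are the gene annotation's release, whether strand was used in counting, and how reads with several matches were treated. Per the labels' protocols, libraries were made with SMART-Seq v4 and Nextera XT, which do not mark strand. Of 46078 Ensembl identifiers, 45143 (97.97%) matched a symbol.

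Counts were fitted in R 4.3.3 with edgeR 4.0.16 (quasi-likelihood test, robust prior, TMM scaling, 1 mean per group over all 14 libraries, 10 residual degrees of freedom), after a filter for a minimum count of 10 and a total of 15. It left 26990 genes, over all of which p-values were adjusted (Benjamini-Hochberg, called under 0.05). Values are TMM-scaled CPM, divided by exon length where levels of genes are compared. Shares of gene pairs were compared by two-sided exact permutation tests. Similar transcripts were found with BLAST+ 2.17.0. The scripts were tested on simulated data. Alternatives were DESeq2 1.42.0, other scaling and filters, fits of 2 groups, a replicate block, a background covariate and leaving out libraries.

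Values in every library of a comparison are given for genes called in any comparison, the 6 genes with the smallest p in each genotype comparison and the gene of each role with the highest level per kb. The members and lists were chosen with earlier results of these data known. The labels do not say that samples came from separate mice, so p-values reflect no more than the spread between these samples, which may be technical. Replicate libraries of a group differed by more than counting noise (chi-square over its degrees of freedom, 4.97 to 27.1). Same-numbered libraries of the 2 cell types deviated together in controls (correlations of 0.33, 0.11 and 0.33 over 4875 genes of at least 50 CPM), so the numbers may pair these samples. The labels do not state what a number shares. In the other comparisons at least 1 pair had a correlation of 0.1 or less. Control and cKO iILC1, which differ in genotype, nevertheless had 0.53 for replicate 1 and 0.26 for replicate 3. Replicate 1 had the least receptor background in both of these groups, and the part of that in the correlation was not tested. The correlations therefore cannot show that a number marks a shared mouse or day.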

Additional observations from a re-analysis of the deposited data

Results flagged for a closer look

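Among 36 groups of 4 libraries tested for a library far from the others, 4 genes had one, where chance gives about 1 in 20. Slc16a1 was at 48.8 CPM in cKO iNK replicate 4, while the other libraries of that group were at 23.85, 25.6 and 26.0 CPM. The other 3 were all in cKO iILC1 replicate 1. Pfkp was at 301.1 CPM there and at 207.9, 210.4 and 212.0 CPM in the rest of the group. H6pd was at 179.7 CPM against 117.1, 117.1 and 119.0 CPM. Ldhb was at 13.57 CPM against 8.20, 8.27 and 8.64 CPM. This library also had the least receptor background of its group (1881 CPM), and the part of that in the values was not tested.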

How the results depend on the processing

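For genotype in iNK, where 0 of the 32 genes were called, 3 were called by DESeq2 and by a filter of at least 5 CPM on average, 1 in a fit of the 2 groups only, 4 with the background covariate and 6 with the covariate and the 5 CPM filter together. Between the cell types in control mice, 5 were called with the covariate in place of 10, 13 by DESeq2 (adding Gapdh, Pdk3 and Taldo1) and 11 under the 5 CPM filter. In cKO mice, in place of 2, there were 4 by DESeq2, 6 under the 5 CPM filter, 11 with the covariate and 14 with the covariate and the filter. The cause was not tested. Leaving out 1 library at a time gave 0 calls between the genotypes in iNK, between them in iILC1 and for the interaction, 0 to 7 between the cell types in controls and 1 to 5 in cKO mice. The medians over the 32 genes then ran from −0.40 to −0.20, −0.05 to 0.16, 0.21 to 0.52, −0.60 to −0.39 and −0.24 to −0.05 in the same order.

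With the replicate number as a block, 1 gene (Ldha, adjusted p = 0.042) was called between the genotypes in iNK, 0 between them in iILC1 or for the interaction, 13 between the cell types in controls, where same-numbered libraries deviated together, and 5 in cKO mice. What the samples share beyond a number is not stated.

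Of 24 results on single genes under 400 alternative values, 328 stayed on the same side of the threshold, 55 were no longer past it, 17 were newly past it and 0 reversed. The tests on shares of gene pairs could not pass in this design and say nothing about stability. The fit without a robust prior and the covariate with the 5 CPM filter were chosen after seeing the data. Aldoc was not tested under the 5 CPM filter, and low counts limit Aldoc, Ldhb, Hk2, Pfkfb4 and Slc16a3.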
